A study of Mus musculus with 16 samples.

Results

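The regions described here are places in the hippocampal genome that already carried H3K4me3 in wild-type (WT) mice and carried more of it in mice lacking Kdm5c. H3K4me3 is trimethylation of lysine 4 of histone H3. They were chosen by 2 criteria on the libraries taken under standard conditions. The level is given in CPM, a region's read count divided by the library's total over all regions and scaled to reads per 1000000. A region had to average at least 4 CPM in the 2 WT libraries, and its mean in the 2 Kdm5c KO libraries had to be at least 1.5 times higher. Of 35996 regions, 20103 reached the minimum level in WT and 797 of these also reached the minimum fold. The standard-condition libraries therefore chose the regions and are given only as a description. Every test below used 8 other H3K4me3 libraries.

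H3K4me3 was measured by ChIP-seq in hippocampus of adult male mice, 2 to 4 months old, with each library made from a pool of 2 mice and with littermates as controls. WT and Kdm5c KO mice of a mixed F1 C57/129 background gave 2 libraries each under standard conditions and 2 each after novelty, which was 1 h in a box holding unfamiliar objects. The line the labels call Kdm5c ifKO and its controls, written ifWT here, were C57BL/6J in the basal state and gave 2 libraries each. The sources used here do not say how the ifKO line was produced or in which of its cells Kdm5c is lost. One ifWT title reads H3K3me3, but the antibody label of that library is H3K4me3. For H3K4me1 and for Kdm5C there was a single library per genotype, from C57BL/6J mice. Replicate libraries are different pools of which the labels say nothing more, so a p-value reflects the spread between pools.

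H3K4me3 marks the starts of active genes and is written by SET1 and MLL family methyltransferases. Kdm5c is an X-linked gene whose product removes methyl groups from H3K4, and loss of its human counterpart causes intellectual disability. The enzyme is found at promoters and at enhancers, where H3K4me1 rather than H3K4me3 is the usual mark. In whole hippocampal tissue, more cells carrying the mark and more mark per cell cannot be told apart.

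The H3K4me3 libraries held between 18188843 and 30449302 reads in the regions, so that 4 CPM stood for 72.8 to 122 reads. Kdm5c's own start region (mm10, chromosome X, 152232907 to 152234889) was not among the 797. It had 62.7 and 71.2 CPM in WT after novelty, 61.9 and 62.5 in KO after novelty, 55.7 and 59.9 in ifWT and 51.6 and 58.3 in ifKO. A loss of sequence further inside the gene would not be seen there. All 13 measured marker genes of hippocampal pyramidal and granule neurons had reads.

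The selected regions were modest peaks. Their median level in WT under standard conditions was 7.35 CPM, from 4.00 to 101.7, against 41.9 CPM for the other 19306 regions that reached the minimum level. Of the 797, 442 were under 8 CPM, 224 were from 8 to 16 CPM and 131 were at or above 16 CPM. Under standard conditions their median fold was 1.75 and the highest was 6.63, at Tnxb. There were 217 with a fold of at least 2 and 35 with at least 3. Just inside the limit were B430209F14Rik, Gm8444 and Gm46207, at folds that round to 1.5. Just outside it were Lrrc49, Thra and Gm973, at 1.4991 to 1.4995 times. The selected regions and the others had median widths of 1414 and 1491 bp.

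About as many selected regions lay away from gene ends as at them. Gene ends here reach 2 kb from the first or last base of a RefSeq gene. By that measure 411 (51.6%) were at a gene end, 256 (32.1%) inside a gene and 130 (16.3%) between genes, against 78.5%, 15.6% and 5.88% of the other regions. Much of that contrast went with level. Among regions of 4 to 8 CPM, 44.6% of those selected and 49.0% of the others were at gene ends. At 16 CPM or more the shares were 70.2% and 87.8%, and 30.7% of the selected strong regions held a RefSeq gene start against 70.0% of the others. Where the gene-end regions were at genes of a known biotype, 165 (20.7% of all selected) were at long noncoding RNA genes and 222 (27.9%) at protein-coding genes, against 5.35% and 70.9% of the others. The 3′ side of a gene was marked in 79 (9.91%), against 2.53% of the others.

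**Figure D1:**
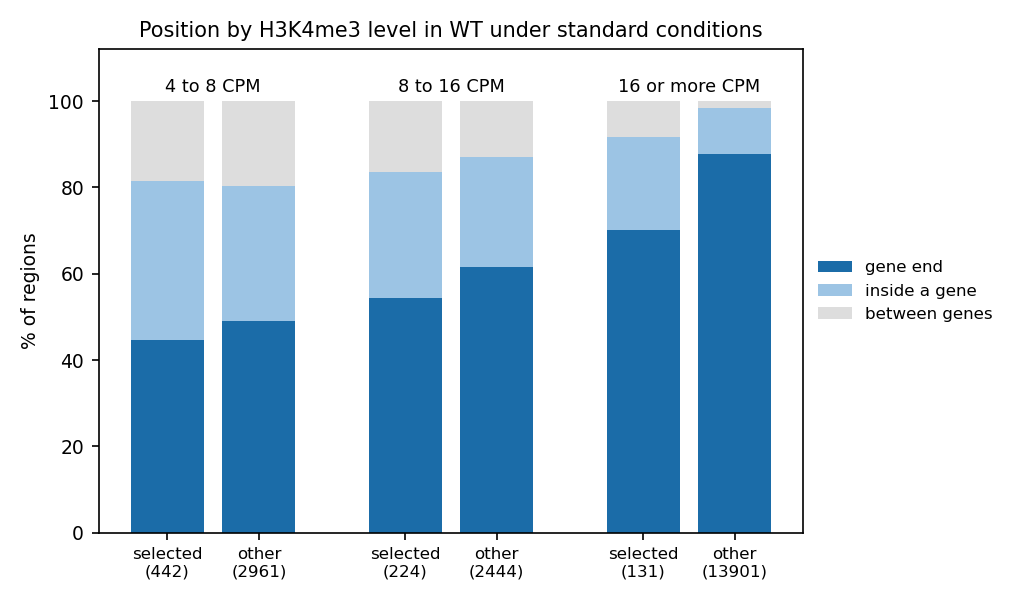
Share of regions at gene ends, inside genes and between genes (percent, vertical axis) for the selected regions and for the other regions of at least 4 CPM, within 3 ranges of their level in WT under standard conditions. The gap at gene ends is small from 4 to 8 CPM (44.6% against 49.0%) and wider at 16 CPM or more (70.2% against 87.8%).

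Of the 765 selected regions on chromosomes whose sequence was read, 187 held a RefSeq gene start. Around each start a window from 250 bases before to 50 bases after was read from RefSeq (GRCm38.p6), which gave 226 windows. Their median was 2.67 CG dinucleotides per 100 bases, against 7.00 in the 14045 windows of the other regions and 2.33 in all 32817 windows. The same held for regions of 4 to 16 CPM, with 2.33 in the selected and 4.00 in the others, and for long noncoding RNA starts, with 2.33 and 6.67. The GC box (GGGCGG, either strand) was in 33.2% of the windows of selected regions, 65.9% of those of the others and 35.6% of all windows. The E-box (CACGTG, a palindrome) was in 14.2%, 9.96% and 7.15%. Also searched on both strands were the E2F-type GCGGGAA (3.54%, 8.69% and 4.60%), the CRE TGACGTCA (0.442%, 3.20% and 1.79%), the NRF1-type GCGCATGCG (0.885%, 3.59% and 1.75%) and the TATA-type TATAAA (7.08%, 6.11% and 13.6%). Among regions of 4 to 16 CPM, 2 of these contrasts were reversed. There the NRF1-type was in 1.17% of the selected windows (2 of 171) and 0.555% of the others, and the TATA-type in 7.02% and 9.78%. No motif searched contains another. These matches describe the letters in the windows and no more.

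The 4 windows below show how far apart these starts are in sequence, with every CG in capitals. They come from the selected regions that hold a RefSeq start. The first and second belong to those with the largest rise after novelty, the third to the one with the largest called difference between the cohorts, and the fourth to the one with the densest Kdm5C signal. Gm35823, a long noncoding RNA gene with 6 CG in its window, is at chr14:31268659-31268958 on the plus strand. 4933428G20Rik, which shares its end with Arhgap23, has 42 and is at chr11:97500291-97500590 on the minus strand. Gm40145, a long noncoding RNA gene with 1 CG, is at chr3:125898936-125899235 on the plus strand. Gm10190 has 48 and is at chr17:80373493-80373792 on the minus strand.
Gm35823: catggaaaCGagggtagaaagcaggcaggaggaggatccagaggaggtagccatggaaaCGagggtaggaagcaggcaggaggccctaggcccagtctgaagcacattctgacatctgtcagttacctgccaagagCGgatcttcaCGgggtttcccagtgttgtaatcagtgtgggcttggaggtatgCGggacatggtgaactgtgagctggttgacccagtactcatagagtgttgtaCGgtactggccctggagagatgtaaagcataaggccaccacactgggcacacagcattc
4933428G20Rik: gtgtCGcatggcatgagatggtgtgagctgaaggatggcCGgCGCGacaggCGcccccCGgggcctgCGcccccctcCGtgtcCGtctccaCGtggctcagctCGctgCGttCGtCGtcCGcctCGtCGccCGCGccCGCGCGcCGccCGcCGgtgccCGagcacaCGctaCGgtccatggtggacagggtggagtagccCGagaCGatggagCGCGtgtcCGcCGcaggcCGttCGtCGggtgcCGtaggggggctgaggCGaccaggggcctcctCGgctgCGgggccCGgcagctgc
Gm40145: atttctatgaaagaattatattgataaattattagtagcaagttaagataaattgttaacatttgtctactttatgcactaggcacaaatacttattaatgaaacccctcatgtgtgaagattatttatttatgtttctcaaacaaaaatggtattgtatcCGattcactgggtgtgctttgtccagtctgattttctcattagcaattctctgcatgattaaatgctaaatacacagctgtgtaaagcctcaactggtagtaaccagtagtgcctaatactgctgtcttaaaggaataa
Gm10190: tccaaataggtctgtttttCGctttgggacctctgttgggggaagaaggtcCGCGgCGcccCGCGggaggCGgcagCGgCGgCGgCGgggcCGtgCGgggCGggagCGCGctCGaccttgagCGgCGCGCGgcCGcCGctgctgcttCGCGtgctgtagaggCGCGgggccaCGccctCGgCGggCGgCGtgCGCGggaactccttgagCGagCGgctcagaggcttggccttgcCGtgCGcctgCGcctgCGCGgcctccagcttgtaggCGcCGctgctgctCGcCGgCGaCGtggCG

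Gm35823 and 4933428G20Rik, with 6 and 42 CG, gained H3K4me3 to a like extent. At Gm35823 the CPM was 5.07 and 5.29 in WT after novelty against 24.8 and 28.0 in KO, then 3.99 and 4.69 in ifWT and 24.3 and 22.8 in ifKO. At 4933428G20Rik it was 4.34 and 4.84 in WT, 19.5 and 21.7 in KO, 5.11 and 5.17 in ifWT and 20.8 and 19.7 in ifKO. Both KO libraries lay far above both controls in each cohort, and the fitted log2 changes were 2.29 and 2.44 for Gm35823 and 2.10 and 1.98 for 4933428G20Rik.

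After novelty, H3K4me3 was higher in KO at nearly all of the selected regions. The edgeR quasi-likelihood fit to the 8 libraries called 711 of 797 higher and 0 lower at an adjusted p under 0.05, with 766 at an unadjusted p under 0.05. Over all 35863 regions tested, 10.3% were called higher and 6.38% lower. DESeq2 called 640 higher and limma-voom 718. The other regions of at least 4 CPM were called higher in 5.93% and lower in 11.5%. The median log2 change of the selected regions was 0.73, with quartiles of 0.55 and 1.02, and it ranged from 0.04 to 2.47. All 797 changes were above 0, whereas the median over all regions tested was -0.00. In 788 regions both KO libraries exceeded both WT libraries, against 35.3% of all regions tested. Their median level was 7.47 CPM in WT and 13.9 CPM in KO.

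In the ifKO cohort, which shares no library with the selection and is C57BL/6J rather than F1 C57/129, H3K4me3 was higher at more of these regions than not. Of 797, 460 were called higher in ifKO than in ifWT and 0 lower by edgeR, with 573 at an unadjusted p under 0.05. Over all regions tested, 4.52% were called higher and 0.558% lower. DESeq2 called 374 higher and limma-voom 420. Of the other regions of at least 4 CPM, 2.86% were called higher. The median log2 change was 0.53, with quartiles of 0.27 and 0.81 and a range from -0.46 to 2.75, and 728 changes were above 0. Both ifKO libraries exceeded both ifWT libraries in 632 regions, against 22.7% of all regions tested, and fell below them in 13. The median level was 7.24 CPM in ifWT and 11.3 CPM in ifKO.

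Called higher in both comparisons were 446 regions, which is 62.7% of those called after novelty and 97.0% of those called in ifKO. Another 265 were called after novelty alone, 14 in ifKO alone and 72 in neither. A fold of at least 1.5 was met in both by 331 regions and in neither by 164. Across the 797 regions the changes correlated with r = 0.595 (rho = 0.523), given as a description, since regions of 1 library share its depth and antibody reaction.

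**Figure D2:**
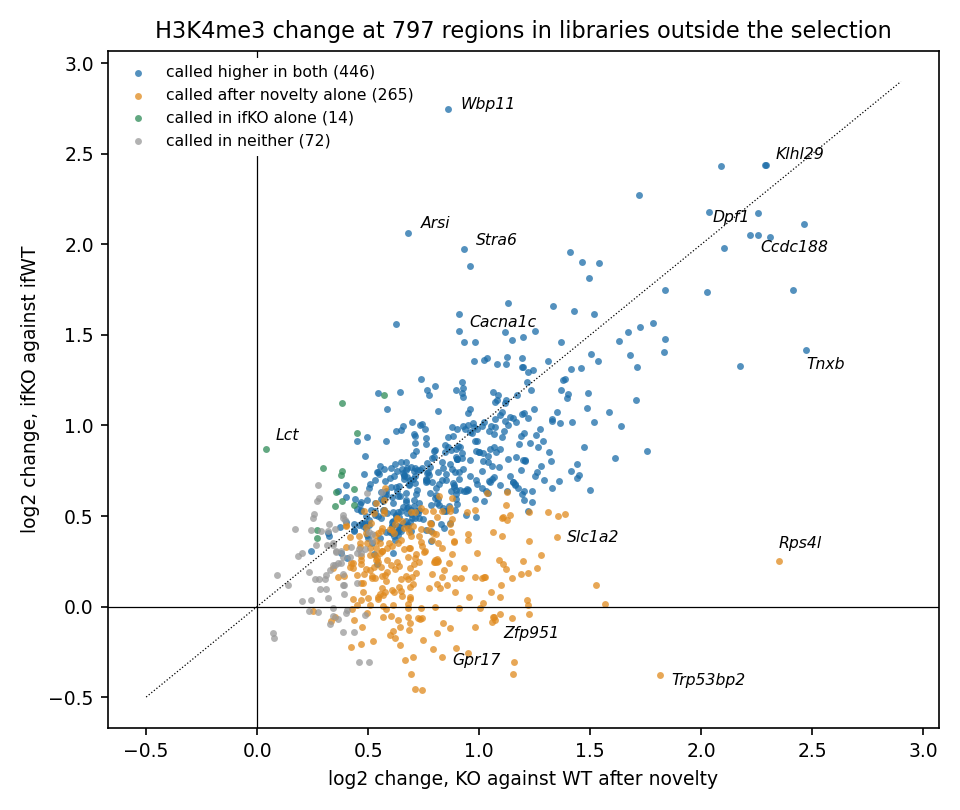
Fitted log2 change in H3K4me3 after novelty (KO against WT, horizontal axis) and in ifKO against ifWT (vertical axis) for each of the 797 regions, with equal change on the dotted line and colour showing where edgeR called the region higher. All points lie right of 0, and 69 lie below 0 on the vertical axis.

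The calls rose with the level of a region and with its fold under standard conditions. From 4 to 8 CPM, 367 of 442 were called higher after novelty and 197 in ifKO, from 8 to 16 CPM 214 and 162 of 224, and at 16 CPM or more 130 and 101 of 131. The size of the change did not rise with level in this way. By rising level its median log2 was 0.80, 0.72 and 0.65 after novelty and 0.52, 0.63 and 0.52 in ifKO. Among the 403 regions of 1.5 to 1.75 times, 80.4% were called higher after novelty and 43.7% in ifKO, with median log2 changes of 0.57 and 0.41. Among the 35 regions of at least 3 times, 100% and 94.3% were called, with medians of 1.83 and 1.63. The limit of 1.5 cut a continuous distribution, because the 1444 regions of 1.25 to 1.5 times were called higher in 47.2% and 21.1%. Across the 797, the log2 fold under standard conditions correlated with the change after novelty at r = 0.867 and with the change in ifKO at r = 0.615. Both are descriptions, since these folds chose the regions and came from the line and background of the novelty cohort.

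**Figure D3:**
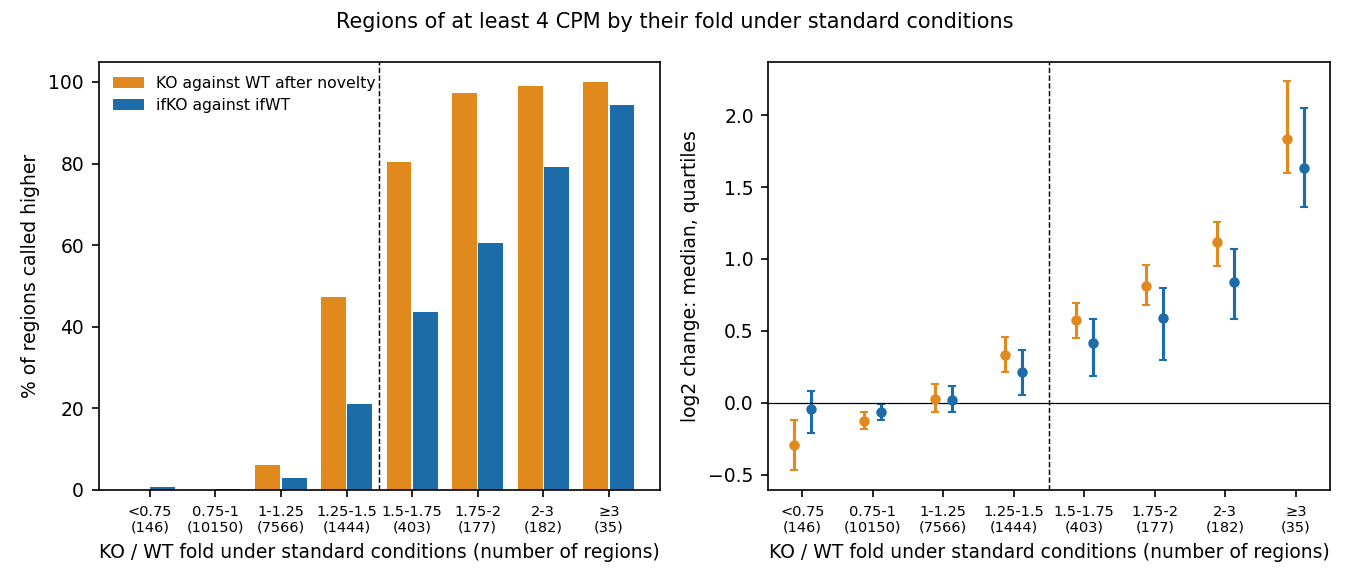
Regions of at least 4 CPM in 8 bins of their KO to WT fold under standard conditions (horizontal axis, with the number of regions); the dashed line is the selection limit of 1.5. The left panel gives the percent called higher and the right panel the median log2 change with quartiles, and both climb from bin to bin above a fold of 1, to 100% after novelty and 94.3% in ifKO at 3 times or more.

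Calls were spread over position classes. At gene ends 376 of 411 regions were called higher after novelty and 252 in ifKO. Inside genes these were 224 and 135 of 256, and between genes 111 and 73 of 130. The X chromosome held 11 selected regions (1.38%) against 3.33% of the others, and 9 of them were called after novelty and 6 in ifKO.

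The largest rises are given first. Tnxb encodes tenascin XB, a protein of the extracellular matrix. The region inside it (chromosome 17, 34671150 to 34673476) had 6.10 and 6.87 CPM in WT after novelty against 37.3 and 37.7 in KO. In ifWT it had 9.48 and 9.52 and in ifKO 29.6 and 20.7. The groups did not overlap in either cohort, and the ifKO libraries lay apart from each other. The log2 change was 2.47 ± 0.13 (SE) after novelty (edgeR adjusted p 1.9e-16) and 1.42 ± 0.13 in ifKO (7.3e-10), a called difference of 1.06 ± 0.19 (adjusted p 0.0017).

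Dpf1 encodes a neuron-specific subunit of the BAF chromatin remodelling complex. The region at its 3′ end (chromosome 7, 29313691 to 29316056) had 7.91 and 8.55 CPM in WT after novelty against 40.9 and 41.0 in KO, then 6.76 and 6.04 in ifWT and 30.8 and 26.6 in ifKO. It rose by a log2 change of 2.26 ± 0.11 and 2.17 ± 0.12. Ccdc188, a coiled-coil protein gene (chromosome 16, 18213869 to 18216079), had 7.52 and 6.59 CPM in WT and 35.8 and 32.0 in KO, 5.44 and 5.04 in ifWT and 20.9 and 22.4 in ifKO. Its log2 changes were 2.22 ± 0.11 and 2.05 ± 0.13. In both genes every mutant library was more than 3 times above its controls. Poc1a, which encodes a centriole protein, rose by 2.31 ± 0.14 and 2.04 ± 0.15 on the log2 scale, and Klhl29, a kelch-like gene, by 2.29 ± 0.16 and 2.44 ± 0.17. Gm46070 and Gm32013, long noncoding RNA genes, rose by 2.26 and 2.03 after novelty and by 2.05 and 2.18 in ifKO. Tubgcp2, which encodes a subunit of the gamma-tubulin complex, rose by 1.72 and 2.27.

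Of the 32 measured H3K4 methylation enzymes and cofactors, 2 had an end within 2 kb of a selected region. Setd1b encodes a methyltransferase that writes H3K4 methylation. Its region, shared with the end of Rhof (chromosome 5, 123138457 to 123140577), lay 5828 bp from the nearest RefSeq start. This was the highest selected region, at 96.2 and 88.1 CPM in WT after novelty, 150 and 154 in KO, 89.1 and 92.7 in ifWT and 135 and 130 in ifKO. Its log2 changes were 0.68 ± 0.06 and 0.54 ± 0.06. The other region held the start of Hsd3b7 and lay within 2 kb of an end of Setd1a, a gene related to Setd1b. It was weak, at 7.86 and 6.90 CPM in WT after novelty against 10.7 and 10.4 in KO. In ifWT it had 4.36 and 6.61 and in ifKO 5.95 and 7.20. Its change was 0.47 ± 0.16 after novelty (edgeR adjusted p 0.038, but 0.12 with DESeq2) and 0.26 ± 0.18 in ifKO (0.52). Nsd1, which encodes a methyltransferase for H3K36 (chromosome 13, 55209845 to 55211537), had 40.2 and 37.0 CPM in WT and 81.9 and 79.8 in KO, 42.9 and 43.5 in ifWT and 77.3 and 73.1 in ifKO. The mutant libraries stood clear of their controls, with log2 changes of 1.02 ± 0.06 and 0.80 ± 0.07. Mga encodes a scaffold of a Polycomb complex that silences germline genes. At its gene end (chromosome 2, 119872077 to 119873915) there were 48.3 and 47.7 CPM in WT, 76.3 and 76.5 in KO, 53.7 and 52.3 in ifWT and 68.0 and 68.2 in ifKO, and log2 changes of 0.62 ± 0.06 and 0.37 ± 0.06.

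Other regions of high level rose as well. The region at Mir124a-3, a copy of the neuronal microRNA miR-124 (chromosome 2, 180890659 to 180892934), had 50 and 53.5 CPM in WT, 89.0 and 86.6 in KO, 51.4 and 50.4 in ifWT and 84.4 and 88.1 in ifKO. Its log2 changes were nearly equal, 0.71 ± 0.06 and 0.77 ± 0.06. Gpr62 and Pcbp4, an orphan receptor gene and an RNA-binding protein gene with a shared end, rose by 0.44 and 0.42. Gm32700 rose by 0.90 and 0.62, and the gene end of Zfp532 by 0.90 and 0.57.

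**Figure D4:**
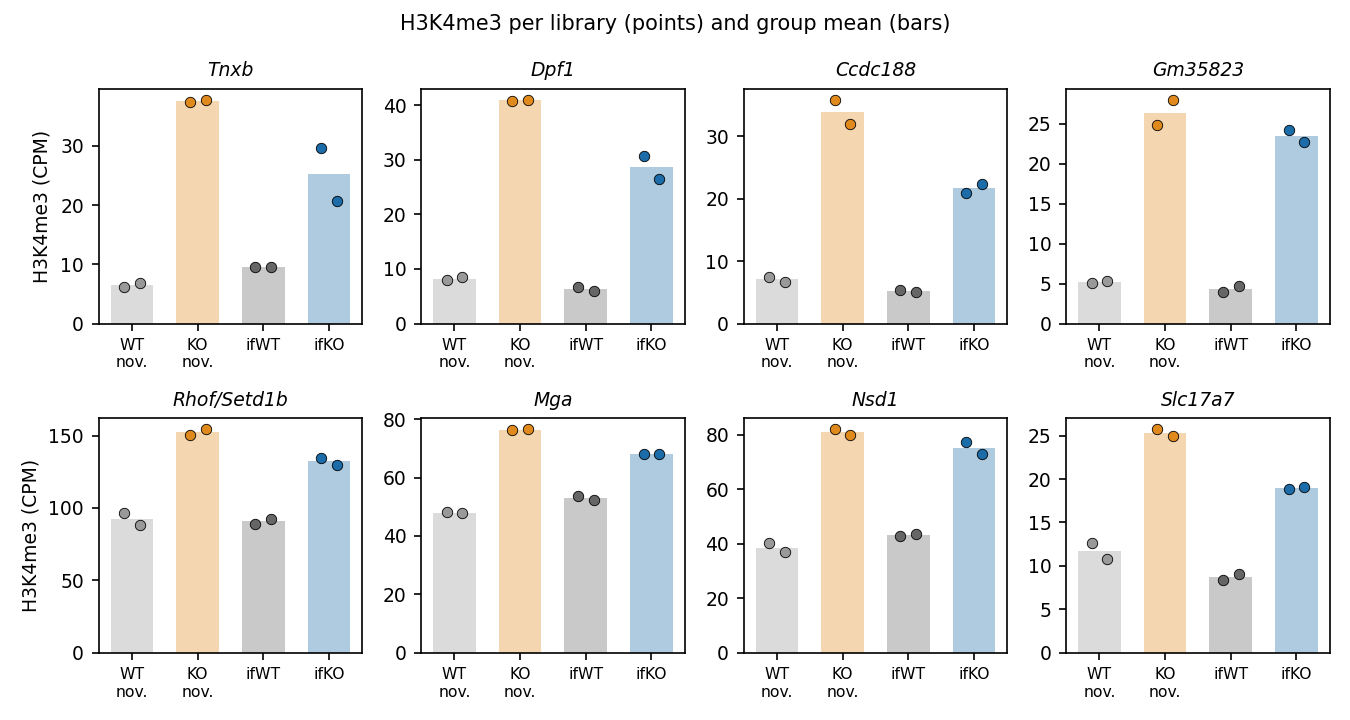
H3K4me3 level (CPM, vertical axes starting at 0) in each outside library (points) and group mean (bars) for 8 named regions: 4 of the largest rises in the top row and the regions at Rhof/Setd1b, Mga, Nsd1 and Slc17a7 below. In every panel both KO libraries lie above both WT libraries after novelty, and both ifKO libraries above both ifWT libraries.

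MicroRNA genes with a mature sequence inside a selected region are shown with the seed (bases 2 to 8) in capitals. Of miR-6991 only the 5p arm is shown, though miR-6991-3p lies inside the same region. The sequences shown share no seed.
miR-688: uCGCAGGCgacuacuuauuc
miR-5046: aGCUCCCGccacugugacccccuu
miR-6991-5p: uGGAGAACagggacugggccug
There were 3 adjacent selected regions at Mir688 and Atp5g2 on chromosome 15, and the one that contains the microRNA (102671494 to 102672112) rose by 0.87 ± 0.13 on the log2 scale after novelty, with 0.41 ± 0.14 in ifKO (adjusted p 0.072). The region with Mir5046 (chromosome 19, 6829792 to 6831655) had 4.21 and 3.74 CPM in WT after novelty against 12.6 and 10.6 in KO, 4.41 and 5.30 in ifWT and 7.99 and 7.15 in ifKO. It rose by 1.5 ± 0.16 and 0.64 ± 0.17. The region with Mir6991 (chromosome 19, 7422236 to 7424174) rose by 0.78 ± 0.08 and 0.56 ± 0.08. Whether any of these microRNAs is made more was not measured.

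Some selected regions stood in groups along a gene. There were 69 with another within 10 kb. The largest group, 5 regions on chromosome 2 (165875081 to 165884766), runs from inside Zmynd8, which encodes a chromatin reader, over the long noncoding RNA genes Gm11465 and 1810021M19Rik. All 5 were called higher in both cohorts, by 0.69 to 2.46 after novelty and 0.62 to 2.11 in ifKO. At Gm11465 (165882349 to 165883571) the CPM was 6.49 and 4.88 in WT after novelty, 31.6 and 32.8 in KO, 4.27 and 4.52 in ifWT and 20 and 17.8 in ifKO. Zfhx2, a zinc finger homeobox gene, had 3 regions. The one inside the gene rose by 2.09 ± 0.13 and 2.44 ± 0.17, whereas a neighbour (55055599 to 55057003) rose by 0.69 after novelty and had 0.05 in ifKO. Ntn3, a netrin gene next to Tbc1d24, had 3 that were all called in both, and so had Arhgef17, though DESeq2 did not call its gene-end region in ifKO (0.097). Of 3 at Zfp532, 3 were called after novelty and 2 in ifKO.

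Gene lists were compared by count with the 18390 gene-end regions that each represented a gene with its strongest signal, of which 7.28% were called higher and 12.4% lower after novelty, and 3.40% and 1.01% in ifKO. Represented that way, the medians of the functional lists after novelty lay between -0.16 and 0.07, against -0.08 for all genes represented. The germline and meiosis list had 26 genes measured, with 6 called higher after novelty and 1 in ifKO, and held 1 selected region, at the shared end of Rad51c and Tex14. The H3K4 methylation enzymes had 32 measured, 1 higher and 13 lower after novelty, 1 higher and 2 lower in ifKO.

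The counts of calls in each list below are to be read beside those of all selected regions, 89.2% after novelty and 57.7% in ifKO. A region is named for its gene whether it lies at the start, at the 3′ side, inside the gene or near it. A list of RNA-binding protein genes, with 32 measured, held 6 regions, of which 6 were called after novelty and 6 in ifKO. They lay inside Celf1, Celf2 (2 regions), Celf4 and Celf6 and at the start of Ptbp1, all genes of splicing regulators. The stronger Celf2 region (chromosome 2, 7080688 to 7082321) had 13.5 and 11.8 CPM in WT after novelty, 27.7 and 30 in KO, 9.01 and 11.3 in ifWT and 22.8 and 19.1 in ifKO, with log2 changes of 1.14 ± 0.11 and 1.05 ± 0.12. Celf6 rose by 1.43 and 1.63. Among glutamate receptor genes, 3 of 3 were called after novelty and 2 in ifKO. A region at the 3′ end of Grik5, a kainate receptor subunit gene, rose by 1.71 ± 0.13 and 1.14 ± 0.13. The region that Grin2d, an NMDA receptor subunit gene, shares with Grwd1 rose by 1.05 and 0.87. Grik4 rose by 1.10 and had 0.49 in ifKO (adjusted p 0.17).

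Channel genes held 5 regions for potassium channels, with 5 called after novelty and 3 in ifKO. A region at the 3′ end of Kcnk12, a tandem-pore channel gene, rose by 0.86 ± 0.08 and 0.94 ± 0.09. Kcnk4 and Kcnk3 rose by 0.67 and 0.76 after novelty and 0.59 and 0.93 in ifKO. Kcna6 and Kcnj10 rose by 0.52 and 0.75 after novelty and had 0.17 and -0.19 in ifKO. The call at Kcna6 was lost without WT novelty replicate 2 (0.056), and that at Kcnj10 without WT novelty replicate 2 (0.098) or KO novelty replicate 2 (0.16). Inside Cacna1c, the gene of an L-type calcium channel pore, the CPM was 5.07 and 4.19 in WT after novelty against 9.33 and 8.57 in KO, 3.75 and 3.61 in ifWT and 10.9 and 10.1 in ifKO. It rose by 0.91 ± 0.16 and 1.52 ± 0.17, a difference that was not called (adjusted p 0.42).

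Solute carriers held 10 regions, with 10 called after novelty and 6 in ifKO, among them Slc2a9 at 1.08 and 1.34. A region inside Slc2a3, the neuronal glucose transporter gene, rose by 0.56 and 0.59 and lay 54823 bp from the nearest RefSeq start. Slc7a11, a cystine transporter gene, rose by 0.62 after novelty and had 0.08 in ifKO. G protein-coupled receptors held 13 regions, with 10 and 7 called. S1pr5, a sphingosine phosphate receptor gene, rose by 0.79 and 0.82.

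The 429 zinc finger genes were represented with 15 called higher and 52 lower after novelty and 9 and 3 in ifKO. They held 8 selected regions at 6 genes, with 8 called after novelty and 5 in ifKO. Zfp469 rose by 1.17 and 0.65 and Zfp423 by 0.67 and 0.47. Of 3 regions at Rab and vesicle traffic genes, 3 were called after novelty and 2 in ifKO. They were led by a region at the 3′ end of Snx10, a sorting nexin gene, at 0.98 and 0.99. Chaperone genes held 3 (3 and 2 called), protocadherins 2 (2 and 1) and ribosomal protein genes 3 (2 and 0). The ifKO calls among these, at Dnajb3, Dnajb1 and Pcdh9, were lost with DESeq2 (adjusted p 0.068, 0.10 and 0.10) and with offsets fitted to region strength (0.066, 0.11 and 0.11). The list of developmental transcription factors matched 2, of which 1 is at Sox2ot, a long noncoding RNA gene, and 1 at Sox30, a transcription factor gene. Sox30 rose by 0.69 and 0.42, the latter not called without ifWT replicate 2 (0.11). Intellectual disability genes held 3, at Nsd1 and Tcf4, with 2 called after novelty and 2 in ifKO. Tcf4 encodes a transcription factor, and its stronger region had 0.79 after novelty and 0.41 in ifKO (edgeR adjusted p 0.13). Its weaker region had 0.38 and 0.75, and its ifKO call (0.027) was lost with DESeq2 (0.093) and limma-voom (0.062).

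Activity-induced genes held 4 regions, with 4 called after novelty and 2 in ifKO. Npas4, an early transcription factor gene of active neurons, had 4.12 and 4.43 CPM in WT after novelty, 7.55 and 8.90 in KO, 3.99 and 5.22 in ifWT and 8.13 and 6.60 in ifKO. Its region (chromosome 19, 5001097 to 5002393) rose by 0.88 ± 0.18 and 0.68 ± 0.19 (edgeR adjusted p 0.021), and the latter call was lost with DESeq2 (0.079), with offsets fitted to region strength (0.067) and without ifWT replicate 1 (0.31) or ifKO replicate 1 (0.35). Rheb, a GTPase gene of the mTOR pathway, rose by 0.58 and 0.64. Egr1 and Maff were called after novelty, at 0.46 and 0.42, but not in ifKO. Neither was called after novelty by DESeq2 (adjusted p 0.15 and 0.08).

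Markers of cell types were unevenly held. Of 13 measured pyramidal and granule neuron genes, 5 had selected regions, 7 in all, with 6 called after novelty and 5 in ifKO. Slc17a7, the vesicular glutamate transporter of these neurons, had 12.6 and 10.8 CPM in WT after novelty, 25.7 and 24.9 in KO, 8.35 and 9.04 in ifWT and 18.9 and 19.1 in ifKO, and rose by 1.07 ± 0.11 and 1.13 ± 0.12. Neurod6, a transcription factor gene of excitatory neurons, rose by 0.73 and 0.51, the latter not called without ifWT replicate 1 (0.10) or ifKO replicate 1 (0.13), and 2 regions inside Camk2a, the gene of a synaptic kinase, by 0.74 and 0.91 after novelty and 1.26 and 1.62 in ifKO. A region at Tbr1 (chromosome 2, 61811709 to 61812369) had 0.48 after novelty and 0.08 in ifKO (edgeR adjusted p 0.86). Its call after novelty was lost with DESeq2 (adjusted p 0.051). A second Tbr1 region had 0.38 and 0.73 and was called in ifKO alone. A region between genes, 4012 bp from Neurod2, rose by 0.56 after novelty and had 0.44 in ifKO (edgeR adjusted p 0.10). Interneuron, vascular, choroid plexus and striatal markers held no selected region. They had 12, 14, 4 and 8 genes measured, and 3.96% of all regions of at least 4 CPM were selected.

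Glial markers held 4 selected regions. All 4 were called higher after novelty and 0 of 4 in ifKO, but 2 were called higher in ifKO when a library was left out. These were Fgfr3 without ifKO replicate 1, at 1.04 (edgeR adjusted p 0.00087), and Slc1a2 without ifWT replicate 2, at 0.63 (0.038). The region inside Slc1a2, the astrocyte glutamate transporter gene, lay 16192 bp from the nearest RefSeq start. It had 12.0 and 11.0 CPM in WT after novelty against 28.5 and 32.2 in KO. In ifWT it had 6.33 and 8.82 and in ifKO 10.1 and 9.68. Gpr17, a receptor gene of oligodendrocyte precursors, had 8.55 and 7.07 in WT, 13.3 and 15.5 in KO, 7.51 and 6.30 in ifWT and 5.41 and 5.94 in ifKO. The KO libraries were apart from WT for both genes, while the ifKO libraries were above their controls for Slc1a2 and below them for Gpr17. The 2 effects differed by 0.97 ± 0.19 at Slc1a2 (edgeR adjusted p 0.005) and by 1.11 ± 0.22 at Gpr17 (0.0064). That of Slc1a2 was not called without WT novelty replicate 2 (0.08), KO novelty replicate 2 (0.057) or ifWT replicate 2 (0.22), and that of Gpr17 not without WT novelty replicate 2 (0.11), KO novelty replicate 2 (0.079) or ifWT replicate 1 (0.055). P2ry12, a microglial receptor gene, rose by 0.47 after novelty and had -0.11 in ifKO, and Fgfr3, expressed by astrocytes, rose by 1.12 and had 0.63. For these 2 the difference was not called (adjusted p 0.46 and 0.75), and DESeq2 did not call P2ry12 after novelty (0.12).

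Summed over their measured gene-end regions, 10 astrocyte genes had 490 to 520 CPM in WT after novelty against 533 to 542 in KO, 440 to 469 in ifWT and 451 to 464 in ifKO. The 10 oligodendrocyte genes had 266 to 271 and 270 to 281 CPM in the former cohort and 260 to 264 and 232 to 239 in the latter. The 11 microglial genes had 72.6 to 80.8 and 79.3 to 86.2 CPM, then 75.7 to 78.8 and 70.8 to 74.3. The 13 pyramidal and granule neuron genes had 760 to 809 and 765 to 797 CPM, then 683 to 749 and 834 to 885. No marker of these lists was at 0. Their part in the differences between the cohorts was not tested.

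The 2 effects were compared in the same fit, as the change after novelty minus the change in ifKO. At 37 selected regions it was called higher and at 3 lower, with 252 at an unadjusted p under 0.05, against 0.477% and 0.053% of all regions tested. Of the other regions of at least 4 CPM, 0.0518% were called higher and 0.057% lower. The libraries that chose the regions shared line and background with the novelty cohort, so the choice itself favoured a larger change there. DESeq2 called 19 higher. The number of higher calls was 11 when WT novelty replicate 2 was left out, 15 when KO novelty replicate 2 was and 17 when ifWT replicate 2 was, and that of lower calls 5 without ifWT replicate 1 and 7 without ifKO replicate 2. Of the 37, 37 were called higher after novelty, 1 was called higher in ifKO and 22 had a change below 0 in ifKO. Their medians were 1.02 after novelty and -0.04 in ifKO, a gap that follows in part from picking them by this difference. The ratio of their controls, ifWT to WT after novelty, had a median of 1.01 but ranged from 0.622 to 1.46. The part of the controls in these differences was not tested. The cohorts differ in line, strain background, exposure to novelty and series of pools, which cannot be told apart.

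Trp53bp2 encodes a p53-binding protein, and the region at its 3′ end (chromosome 1, 182458748 to 182460854) had 3.22 and 3.61 CPM in WT after novelty against 13.0 and 12.0 in KO. In ifWT it had 2.82 and 3.96 and in ifKO 2.93 and 2.25. It rose by 1.82 ± 0.18 after novelty and had -0.38 ± 0.23 in ifKO, a difference of 2.20 ± 0.29 (edgeR adjusted p 1.6e-05). Under standard conditions, which chose it, it had 4.71 and 4.70 CPM in WT and 16.2 and 9.26 in KO. Rps4l is annotated as a transcribed pseudogene of a ribosomal protein gene, so reads from near-identical copies could be split between them. Its region (chromosome 6, 148354317 to 148355988) had 17.4 and 12.7 CPM in WT, 79.2 and 77.9 in KO, 14.8 and 17.4 in ifWT and 15.8 and 22.8 in ifKO, a difference of 2.10 ± 0.16 (2.2e-10). Under standard conditions it had 16.1 and 16.7 CPM in WT and 78.0 and 76.7 in KO. Zfp951, a zinc finger gene, had 17.2 and 20.6 in WT, 41.2 and 40.9 in KO, 26.1 and 25.1 in ifWT and 23.9 and 24.3 in ifKO. In these genes the KO libraries stood far from every other group. The ifKO libraries lay near their controls, apart from the one of 22.8 CPM at Rps4l. There the ifKO change was 0.25 in the main fit and 0.48 without ifKO replicate 1.

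Arpc1a, which encodes a subunit of the Arp2/3 actin complex, had 1.15 ± 0.16 after novelty and -0.38 ± 0.21 in ifKO, and Gm40145 1.16 ± 0.18 and -0.31 ± 0.23. The difference at Gm40145 (edgeR adjusted p 0.0057) was not called without WT novelty replicate 2 (0.059), KO novelty replicate 2 (0.095) or ifWT replicate 2 (0.055). Others of the 37, chosen after their values were seen, were a gene end of Chd7, a remodeller gene, at 1.07 and -0.06, and a region inside Prdm16, a transcription factor gene, at 1.09 and 0.05.

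The 3 regions that rose more in ifKO were at Wbp11, Arsi and Stra6. Wbp11 encodes a splicing factor, and the region at its 3′ end (chromosome 6, 136815410 to 136817530) had 23.9 and 23.5 CPM in WT after novelty against 43.9 and 45.4 in KO, but 1.92 and 2.17 in ifWT and 15.7 and 11.7 in ifKO. The controls of the cohorts were thus 0.0863 of each other (ifWT divided by WT), and the log2 changes were 0.86 ± 0.10 and 2.75 ± 0.17. Arsi, a sulfatase gene (chromosome 18, 60911534 to 60913919), had 9.32 and 9.44 in WT, 13.4 and 18 in KO, 9.76 and 8.04 in ifWT and 39.8 and 34.3 in ifKO. Here the controls were alike and the ifKO libraries were the highest, with changes of 0.68 ± 0.13 and 2.07 ± 0.13. Stra6, which encodes a retinol transporter, had 11.5 and 12.7 in WT, 25.5 and 22.3 in KO, 8.12 and 5.56 in ifWT and 29.8 and 23.4 in ifKO. Its difference of -1.04 ± 0.20 (edgeR adjusted p 0.0035) was not called by DESeq2 (0.38) or without WT novelty replicate 2 (0.11) or ifWT replicate 2 (0.16).

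**Figure D5:**
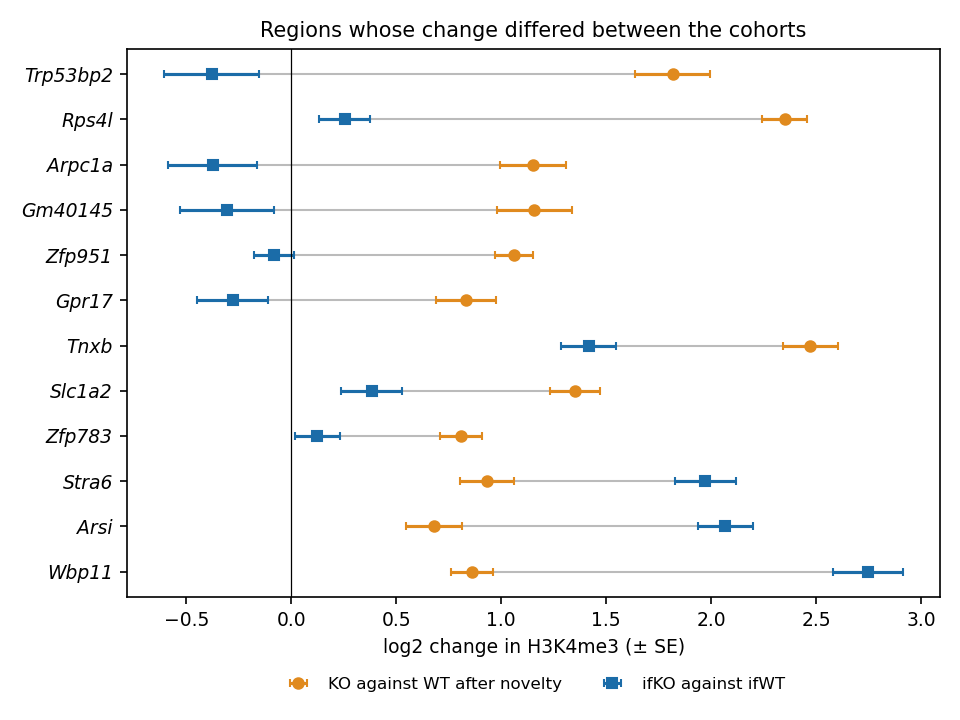
Fitted log2 change (± SE, horizontal axis) after novelty (circles) and in ifKO (squares) for the 12 named regions whose changes were called different by edgeR. In 9 of them the change after novelty is the larger one, and in Stra6, Arsi and Wbp11 the change in ifKO.

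Some regions chosen under standard conditions were not called outside them. Of the 86 not called after novelty, the smallest change was at a region inside Lct, the gene of intestinal lactase. It had 8.21 and 8.69 CPM in WT after novelty against 9.10 and 8.90 in KO, 7.08 and 5.35 in ifWT and 13.2 and 9.35 in ifKO. The log2 change was 0.04 ± 0.16 after novelty (edgeR adjusted p 0.90) and 0.87 ± 0.17 in ifKO (0.00067), the latter lost without ifWT replicate 2 (0.06) or ifKO replicate 1 (0.12). Sema4a, a semaphorin gene, had 0.07 ± 0.15 and -0.15 ± 0.16, and Gm20670, Tuba3b, Exoc3l4 and Dysf had 0.08 to 0.19 after novelty. All 6 were between 4 and 9 CPM in WT under standard conditions.

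Kdm5C signal was compared over the regions of a separate deposited file. That file lists 2321 regions, and 46 selected regions (5.77%) overlapped one, against 11.7% of the other regions of at least 4 CPM and 6.43% of all regions. At gene ends the shares were 8.76%, 13.8% and 10.7%. The other regions were stronger, with a median of 41.9 CPM in WT under standard conditions against 7.35. The part of level in these shares was not tested. No source states the unit of its values. They were taken as covered bases because low values pile up at multiples of 50 (41.0% to 48.4% of the low values in 3 of the libraries), and were divided by 50 into read equivalents. The totals of these libraries are unknown. The 46 selected regions met 45 regions of the file, since 2 at Ptma share one, and each was counted once. Over these, Kdm5C had 2264 read equivalents in WT and 334 in KO, a ratio of 6.79 (95% exact interval 6.04 to 7.63). WT was above KO at 46 of 46 selected regions. The same held at 2259 of 2267 overlapping other regions and at 2312 of 2321 regions of the file. The ratio over the other regions was 4.46. H3K4me1 had 515 and 251, a ratio of 2.05 (1.76 to 2.40), against 1.63. The intervals rest on the inferred unit and cover counting error only, and with 1 library a group no test was made.

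The densest Kdm5C signal per base was at Mga, with 271 read equivalents in WT and 21.4 in KO. Rnf113a2, a ring finger gene, had 107 and 7.84, a region inside Klhl35 had 195 and 21.7, one inside Sdcbp2 had 76.9 and 6.48, and one inside Cpm, a carboxypeptidase gene, had 20.9 and 0. Gm10190, whose start is printed above with 48 CG, had 164 and 14.5. Its H3K4me3 was 30.9 and 29.0 CPM in WT after novelty against 47.6 and 49.3 in KO, 37.4 and 34.2 in ifWT and 50.6 and 46 in ifKO, with log2 changes of 0.65 and 0.44. Of the 46 regions, 45 were called higher after novelty and 38 in ifKO, and of the 751 without overlap 666 and 422. The 46 were also stronger, with a median of 23.1 CPM in WT under standard conditions against 7.07. Their median change was 0.67 after novelty and 0.54 in ifKO, against 0.74 and 0.53. The part of level in the shares called was not tested.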

How the data were processed

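H3K4me3 was analysed in 12 libraries, 2 in each of 6 groups, of which 4 chose the regions and 8 were tested. The authors deposited read counts per region of mm10, made with R 3.3, MACS2 2.1.0, SAMtools 1.3.1, DESeq2 1.10.0 and Bowtie2 2.2.9 per the submitters' processing notes, which give them no roles. The sources used here do not state how regions were drawn. Each deposited count file held 36005 regions, and 9 repeats were removed. The deposited H3K4me1 and Kdm5C signal was taken as covered bases, 50 to a read equivalent, which no source states.

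The 8 libraries were fitted together by edgeR 4.0.16 (R 4.3.3, limma 3.58.1) with TMM factors of 0.961 to 1.05, filterByExpr (133 regions removed, 35863 tested), the quasi-likelihood test and Benjamini-Hochberg adjustment at 0.05. DESeq2 1.42.0, limma-voom, other scalings, filters, fits and rules, and leaving out each library were alternatives. One alternative fit took in all 12 libraries, also the 4 that chose the regions, and called 719 higher after novelty and 452 in ifKO. The script was tested on simulated data. Fold changes are fitted log2 values and levels are CPM of the file total, for which 3 counts are 0.0985 to 0.165 CPM.

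No sequence was read from chromosome 18. Genes came from a RefSeq table of 49997 genes (nearest within 50 kb where none was closer). Regions were named by the 12 largest called rises after novelty, the 8 largest in ifKO, the 6 highest levels, the 5 largest called differences each way, the 3 on each side of the fold limit, the 5 densest Kdm5C signals, the 6 lowest changes not called after novelty and up to 4 members of each gene list. Some regions and 1 gene list that this takes in are not reported here. Regions outside these that are named were chosen after their values were seen. The members, lists and tests were chosen with earlier results of these data known.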

Additional observations from a re-analysis of the deposited data

Results flagged for a closer look

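At 12 named regions the change after novelty and the change in ifKO differed by edgeR's test of the difference itself (adjusted p under 0.05 over all regions tested). The difference, as log2 change after novelty minus log2 change in ifKO, was 2.20 at Trp53bp2, 2.10 at Rps4l, 1.53 at Arpc1a and 1.46 at Gm40145. It was 1.14 at Zfp951, 1.11 at Gpr17, 1.06 at Tnxb, 0.97 at Slc1a2 and 0.69 at Zfp783. At Zfp783 the call was lost without WT novelty replicate 2 (0.23), KO novelty replicate 2 (0.11) or ifWT replicate 1 (0.093). It was -1.89 at Wbp11, -1.39 at Arsi and -1.04 at Stra6, the regions with the larger change in ifKO. Strain background, line and novelty cannot be told apart in these differences. The regions were chosen in the line and background of the novelty cohort, which favours differences above 0.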

How the results depend on the processing

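Every median and every count of higher calls in the novelty and ifKO comparisons kept its direction under the alternatives run. With offsets fitted to region strength the medians were 0.667 after novelty and 0.469 in ifKO. DESeq2 called 19 differences higher. Leaving out 1 library in turn gave 547 to 729 regions called higher after novelty, 360 to 443 in ifKO and 0 to 1 lower in ifKO, and 11 to 52 higher and 2 to 7 lower differences. A rule of at least 8 CPM chose 355 regions. One of at least 2 times chose 217, whose medians were 1.17 after novelty and 0.916 in ifKO. The ifKO median was 0.586 with the rule on TMM-scaled CPM (687 regions), 0.460 when the rule left out WT standard replicate 1 (906) and 0.461 when it left out KO standard replicate 2 (969). Libraries of the same number did not deviate together (r = 0.0094 and -0.036). With the replicate block, 704 were called higher after novelty and 448 in ifKO, and 38 differences were higher and 4 lower. Motifs in the regions themselves were not run. With 2 pools a group and 72.8 to 122 reads at 4 CPM, small changes at weak regions were not detectable.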
